A study of Manis javanica with 3 samples.

Results

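The insulin-like growth factors and their binding proteins of *Manis javanica* were described across 3 libraries, labelled small intestine, salivary glands and liver. Members were the genes annotated by Swiss-Prot (or by KEGG, where Swiss-Prot gave no symbol) as IGF1, IGF2, IGFALS or IGFBP1 to IGFBP7. This gave 16 of 24220 genes and covered 9 of the 10 family members, because IGFBP7 was not found by symbol. IGFALS was the symbol of 7 genes, and the NR entry named another product for 6 of them. By NR product name, 11 genes covered all 10 members, with 1 gene (gene13917, with the symbol IGFBPL1) found by product name alone and 2 loci named IGFBP5. The 11 genes by product name are described first, and the 6 other genes with the IGFALS symbol follow. The family was chosen by its counts and FPKM values in these libraries, so these values and their folds are given as a description and no test was made of them.

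All RNA came from 1 adult female, which was of wild origin and died of natural causes under rescue care. Tissue was taken directly after death, and the stomach held ants. The tissues were frozen in liquid nitrogen, mRNA was taken with poly-T beads, and the reads keep no strand. There was 1 library per tissue, so no value has a replicate check, and tissue, library and this animal's state at death cannot be told apart. Counts summed to between 8318686 and 14568778 per library, and a count of 0 allows up to 0.295 CPM (counts scaled to library size) in the small intestine, 0.361 CPM in the salivary glands and 0.206 CPM in the liver, from 3 counts and for counting error only.

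Insulin-like growth factors are small secreted proteins related to insulin that act through a receptor tyrosine kinase on growth and survival of cells. Most of the factor in blood is held by binding proteins, which lengthen its stay in the circulation and limit its access to receptors, and proteases that cut the binding proteins release it. In mammals the liver is the main source of circulating IGF1, which it makes under the control of growth hormone, and it is also a known source of several binding proteins.

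The labelled tissues were compared with marker genes of their cells. In the liver library all 12 hepatocyte genes were above an FPKM (fragments scaled for transcript length and mapped fragments) of 1, with a summed FPKM of 70191, while these genes summed to 202 in the small intestine library and 133 in that of the salivary glands. In the library labelled small intestine, 1 of 8 enterocyte genes was above 1 and 4 were at a count of 0, among them FABP2, LCT and MEP1A. In the same library 13 of 14 stomach genes were above 1 and pepsin A had an FPKM of 94138. By these markers it held mainly stomach and few enterocyte transcripts, so small intestine is used below only as the label of this library. The source of the stomach transcripts was not tested. Smooth muscle genes summed to 3345 in that library, 380.3 in the salivary glands and 46.1 in the liver, and fibroblast and stellate cell genes to 659, 90.7 and 164. Of 8 salivary gland genes found, 5 were above 1 in the salivary glands, where KRT7 reached 197, AQP5 94.3 and BPIFA1 had a count of 0. In bulk tissue, fewer cells of a type and less RNA per cell cannot be told apart in any value below.

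At an FPKM above 1, 10 of the 11 genes were detected in the small intestine, 8 in the salivary glands and 10 in the liver. By symbol the numbers were 11, 9 and 13 of 16, beside 59.4%, 56.3% and 57.0% of all genes. The highest FPKM of the 3 libraries was in the liver for 7 of the 11 genes and in the small intestine for 4, while the salivary glands had the highest level of none. The lowest FPKM was in the salivary glands for 8 genes, but for IGFBP1, IGFBP6, IGFBP7 and the second IGFBP5 locus the next library did not differ from them beyond counting error. The liver was lowest for IGFALS and IGFBP3. The lowest library of IGFBP5 was not determined, because the small intestine and the salivary glands did not differ beyond counting error.

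**Figure D1:**
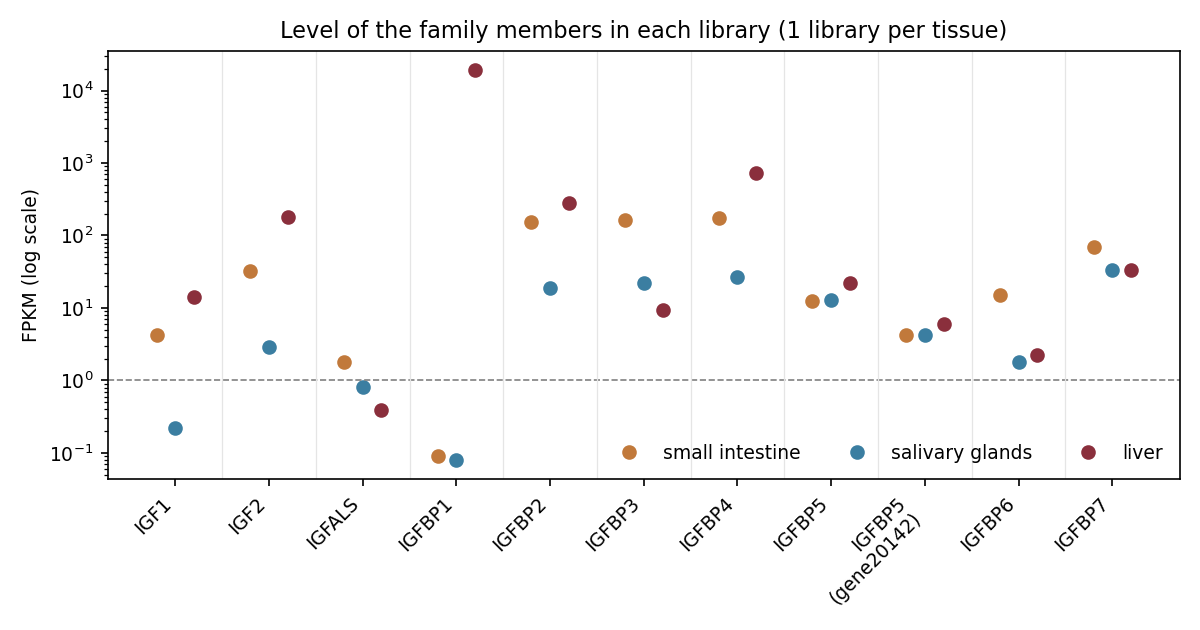
FPKM on a log axis of the 11 genes named by NR product, with 1 point per library and a dashed line at an FPKM of 1. IGFBP1 lies at 19034 in the liver and under 1 in the other libraries, whereas the points of IGFBP5 and of its second locus lie close together.

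The ligands were most abundant in the liver. IGF1 (gene1928, scaffold NW_016528266.1, 440226 to 515071, minus strand), the growth hormone-dependent factor of the circulation, had 136 counts in the small intestine, 11 in the salivary glands and 885 in the liver. Its FPKM values were 4.28, 0.218 and 14.3 in that order. Only in the salivary glands did it lie under an FPKM of 1. Folds below are of counts scaled by TMM, with a 95% interval that covers counting error only, and a gene was taken as past the fold at a 2-fold difference with at least 10 counts in the pair. IGF1 in the liver was 3.84-fold (3.21 to 4.64) the level of the small intestine. The liver level was 53.4-fold (29.7 to 107) that of the salivary glands, a ratio that rests on the 11 counts there.

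IGF2 (gene13965, scaffold NW_016537529.1, 42254 to 66987, minus strand), best known as a growth factor of the fetus that some species keep making in the adult liver, had 465, 51 and 5444 counts in the small intestine, salivary glands and liver. The FPKM values of 31.9, 2.94 and 179 placed the libraries in the same order as for IGF1. The liver level was 6.92-fold (6.29 to 7.62) that of the small intestine and 70.9-fold (53.8 to 95.3) that of the salivary glands. The small intestine in turn had 10.3-fold (7.67 to 14) the level of the salivary glands. IGF2 was thus the more abundant ligand transcript in every library, with an FPKM 7.45 times that of IGF1 in the small intestine, 13.5 times in the salivary glands and 12.5 times in the liver. An unannotated gene on the plus strand, with 14, 1 and 31 counts, overlapped the IGF2 locus, and reads of the pair cannot be told apart without strand.

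The insulin gene lay 1217 bases from IGF2 on the same scaffold and strand, the order also found in the RefSeq table of the MJ_LKY assembly, and had a count of 0 in all 3 libraries. Of the 8 symbols of the insulin and relaxin family looked for, 5 were found, and none of these genes passed an FPKM of 1 in any library. The highest was INSL3, a hormone of the testis and ovary, with 4 counts and an FPKM of 0.493 in the liver, followed by INSL6 with 2 counts there.

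IGFBP1 (gene14773, scaffold NW_016538328.1, 441267 to 446290, minus strand), a liver-secreted binding protein whose transcription insulin represses and fasting raises, had 380327 counts in the liver and 1 count in each of the other libraries. In FPKM its level was 19034 in the liver, with 0.0923 and 0.0802 in the small intestine and salivary glands. It was the gene with rank 4 by FPKM in the liver and made up 2.61% of all counts there (95% Wilson interval 2.60% to 2.62%). A single count is under the limit that a count of 0 allows, so the 2 other libraries did not show whether it was expressed at all. The log2 ratio of the liver to the small intestine was 17.78 (counting interval 15.30 to 23.08) and to the salivary glands 17.95 (15.47 to 23.25).

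IGFBP3 (gene14772, 410504 to 415248, plus strand), the main carrier of both ligands in the serum of adult mammals, lay 26018 bases from IGFBP1 on the same scaffold, with no other listed gene between them. The RefSeq table of MJ_LKY also has the pair as neighbours. The counts of IGFBP3 were 2944 in the small intestine, 472 in the salivary glands and 285 in the liver, and its FPKM values were 166, 22.0 and 9.34. The liver, which held nearly all counts of its neighbour, was thus lowest for IGFBP3. The small intestine had 17.5-fold (15.5 to 19.8) the liver level and 7.01-fold (6.36 to 7.74) the salivary gland level. The salivary glands had 2.49-fold (2.15 to 2.90) the liver level. The gene on the other side of IGFBP1, 1517 bases away, was a new gene with 0, 0 and 1283 counts.

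IGFBP2 (gene13345, scaffold NW_016536931.1, 198534 to 221833, plus strand), an abundant serum binding protein, had 1465, 237 and 5599 counts in the small intestine, salivary glands and liver and FPKM values of 153, 18.6 and 278. The liver level was 2.26-fold (2.13 to 2.39) that of the small intestine, though in FPKM the log2 difference of 0.86 fell short of 2-fold. It was 15.7-fold (13.8 to 17.9) that of the salivary glands, so the liver and the small intestine lay much nearer to each other than either did to the salivary glands.

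IGFBP4 (gene4492, scaffold NW_016529768.1, 182352 to 193331, plus strand), which blocks the action of the ligands until it is cut by pappalysin, followed the same order with 3410, 680 and 28869 counts and FPKM values of 174, 26.6 and 736. Its liver level was 5.0-fold (4.83 to 5.18) that of the small intestine and 28.2-fold (26.1 to 30.5) that of the salivary glands. In FPKM it was the second most abundant binding protein of the liver and of the salivary glands and the most abundant of the small intestine.

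IGFBP5 (gene13346, scaffold NW_016536931.1, 227176 to 247456, minus strand), a binding protein that attaches to extracellular matrix, lay 5342 bases from IGFBP2 with the opposite strand, a pair that is also adjacent in MJ_LKY. It had 780, 950 and 2287 counts and FPKM values of 12.6, 12.8 and 21.8, so that its levels spanned a far smaller range than those of IGFBP2. The liver had 1.73-fold (1.60 to 1.88) the level of the small intestine and 1.60-fold (1.48 to 1.73) that of the salivary glands, both under the 2-fold line, although scaling by library size alone gave a log2 of 1.03 for the former. The log2 difference of 0.12 between the salivary glands and the small intestine had a counting interval from -0.02 to 0.25. The second locus named IGFBP5 by product (gene20142, scaffold NW_016546821.1, 176163 to 201224, minus strand) had 45, 47 and 109 counts and FPKM values of 4.25, 4.25 and 6.05. Its FPKM was 33.8%, 33.2% and 27.8% of that of gene13346 in the small intestine, salivary glands and liver. MJ_LKY lists 1 IGFBP5 gene, and although the methods name RSEM, which shares out ambiguous reads by a model, for FPKM, the split of reads between the 2 loci is uncertain. The small log2 difference of the second locus between the salivary glands and the small intestine, -0.11 (-0.73 to 0.52), turned to 0.35 with library size as the only scaling.

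IGFBP6 (gene14304, scaffold NW_016537779.1, 467734 to 471499, plus strand), which prefers IGF2 as its ligand, had 169, 25 and 52 counts and FPKM values of 15.3, 1.80 and 2.28. The small intestine stood above the others, at 5.50-fold (4.01 to 7.66) the liver level and 7.60-fold (4.98 to 12.1) the salivary gland level. Between the liver and the salivary glands the log2 difference was 0.47 (-0.25 to 1.22), and with 25 and 52 counts an order of these libraries was not detectable at this depth.

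IGFBP7 (gene13917, scaffold NW_016537470.1, 74670 to 150988, minus strand) binds the ligands weakly and is known from vessel walls. Its counts were 464, 289 and 436 and its FPKM values 68.8, 33.5 and 33.7, the narrowest range in FPKM after the IGFBP5 loci. The locus shared bases 74670 to 74673 with the gene of the RNA polymerase II subunit RPB2 on the plus strand, with 540, 774 and 1857 counts. Reads from the 2 strands at this edge cannot be told apart. The small intestine had 1.80-fold (1.58 to 2.06) the level of the liver and 1.81-fold (1.56 to 2.10) that of the salivary glands, but both differences just passed 2-fold when taken from FPKM (a log2 of -1.03 for either library against the small intestine). The liver and the salivary glands differed by a log2 of 0.00 (-0.21 to 0.22), and the sign of that value turned under scaling by library size (-0.22) or by the upper quartile (-0.07). Of 14 endothelial genes, 11, 9 and 11 were above an FPKM of 1 in the small intestine, salivary glands and liver, with sums of 84.7, 51.0 and 77.4, and their part in the level of IGFBP7 was not tested.

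IGFALS itself (gene22119, scaffold NW_016552251.1, 207277 to 216364, minus strand) encodes the acid labile subunit, a serum protein that joins IGFBP3 or IGFBP5 and a ligand in a large circulating complex. It had 153, 91 and 66 counts and FPKM values of 1.78, 0.823 and 0.394 in the small intestine, salivary glands and liver. The liver was thus lowest, and the small intestine had 3.92-fold (2.92 to 5.32) and the salivary glands 2.08-fold (1.5 to 2.89) its level, the latter under 2-fold when taken from FPKM (a log2 of -0.90 for the liver). The transcript given for this gene was 8152 bases long in a locus of 9088 bases, and the NUBP2 gene on the other strand, with 551, 1327 and 1213 counts, lay 512 bases away. Without strand, reads from the 2 strands of this locus cannot be told apart.

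The NR entries of the 6 other genes with the IGFALS symbol name other products. Those of LRIG1, LRIG2, LRRC15 and TRIL name leucine-rich repeats. LRIG1 (gene8714), a receptor inhibitor of the membrane, had 2165, 406 and 902 counts and FPKM values of 52.2, 7.96 and 11.7, and LRIG2 (gene10756) had FPKM values of 4.12, 2.70 and 3.71. GP5, LRRC15 and CPN2 lay on the same scaffold, NW_016535060.1, and strand. CPN2 (gene11360), the regulatory subunit of a plasma carboxypeptidase, had 10, 0 and 406 counts, which put the liver 24.0-fold (12.9 to 50.4) above the small intestine. With the count of 0 set to 3, the liver was 89.9-fold above the salivary glands, and the counting interval began at 72.8-fold. LRRC15 (gene11359) had 41, 6 and 632 counts and a liver level 9.11-fold (6.64 to 12.8) that of the small intestine. Platelet glycoprotein V (gene11358) had 1, 1 and 0 counts and TRIL (gene4639) 9, 3 and 0. The symbol IGFALS therefore stood for genes with a high and a low liver level at once.

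In the liver against the small intestine, 14 of the 16 genes by symbol had enough counts, of which 7 were past the fold upward, 4 downward and 3 in neither direction, beside 48.2% of 17855 genes past it in either direction (23.7% higher and 24.5% lower). By product name 5 of 11 were higher (IGF1, IGF2, IGFBP1, IGFBP2 and IGFBP4) and 3 lower (IGFALS, IGFBP3 and IGFBP6). The median log2 fold was 0.79 over the 11 genes and 0.06 over all genes. In the liver against the salivary glands, 7 of 14 by symbol were higher and 2 lower, beside 47.7% of 17583 genes in either direction (24.5% higher and 23.2% lower). By product name the same 5 genes were higher and 2 lower, IGFALS and IGFBP3, with medians of 0.68 over the 11 and 0.05 over all genes.

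In the salivary glands against the small intestine, none of 14 by symbol was higher and 10 were lower, beside 37.5% of 17045 genes past the fold in either direction (17.0% higher and 20.5% lower). By product name 6 of 10 were lower, IGF1, IGF2, IGFBP2, IGFBP3, IGFBP4 and IGFBP6. IGFALS, both IGFBP5 loci and IGFBP7 were in neither direction, and IGFBP1 had too few counts. Taken from FPKM, IGFALS and IGFBP7 passed 2-fold as well, with a log2 of -1.02 and -1.03. The median was -2.65 over the 10 genes and 0.01 over all genes. With library size as the only scaling, all genes moved by 0.46 on the log2 scale in this comparison. The genes past the fold went from 45.2% higher to 64.5% higher, while the members by symbol stayed at 0 higher and 10 lower. These 10 include LRIG1, LRRC15, CPN2 and TRIL, whose NR entries name other products, so only 6 are of the family by product name. TRIL rests on 9 and 3 counts, and its log2 ratio of -1.75 (-4.28 to 0.25) has an interval that includes 0. The 3 comparisons share libraries and are not independent of each other.

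**Figure D2:**
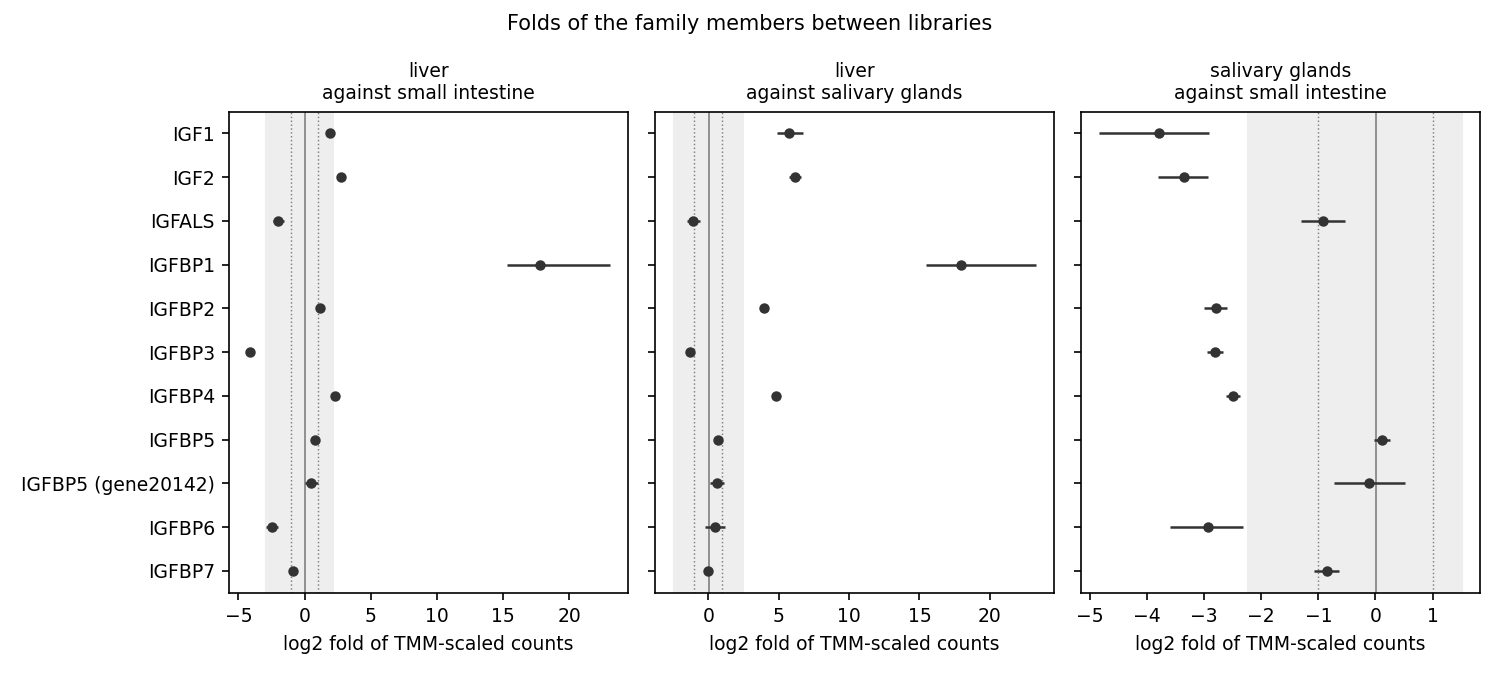
Log2 fold of TMM-scaled counts of the 11 genes in 3 comparisons, with 95% counting intervals as bars, dotted lines at a 2-fold difference, and in grey the median and the range from percentile 10 to 90 of all genes tested. The x axes differ in range. IGFBP1 stands at 17.78 and 17.95 in the liver comparisons and has no point in the third, where IGF1, IGF2, IGFBP2, IGFBP3, IGFBP4 and IGFBP6 lie left of the grey range.

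The make-up of the binding protein transcripts differed between the libraries. In the small intestine, IGFBP4 held 29.2% of the summed FPKM of IGFBP1 to IGFBP7, IGFBP3 28% and IGFBP2 25.8%, so that no single gene dominated. In the salivary glands IGFBP7 held 28%, IGFBP4 22.2%, IGFBP3 18.4%, IGFBP2 15.6% and IGFBP5 14.2%. In the liver IGFBP1 held 94.6% and IGFBP4 3.66%. Without IGFBP1, IGFBP4 held 67.7% and IGFBP2 25.6% of the liver sum, and IGFBP3 held 0.858%, against 28% in the small intestine. The shares of IGFBP5 sum its 2 loci. Counted per fragment rather than per length, IGFBP5, with transcripts of 6814 and 2610 bases, held 36.9% in the salivary glands and IGFBP7, with 894 bases, 10.7%.

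**Figure D3:**
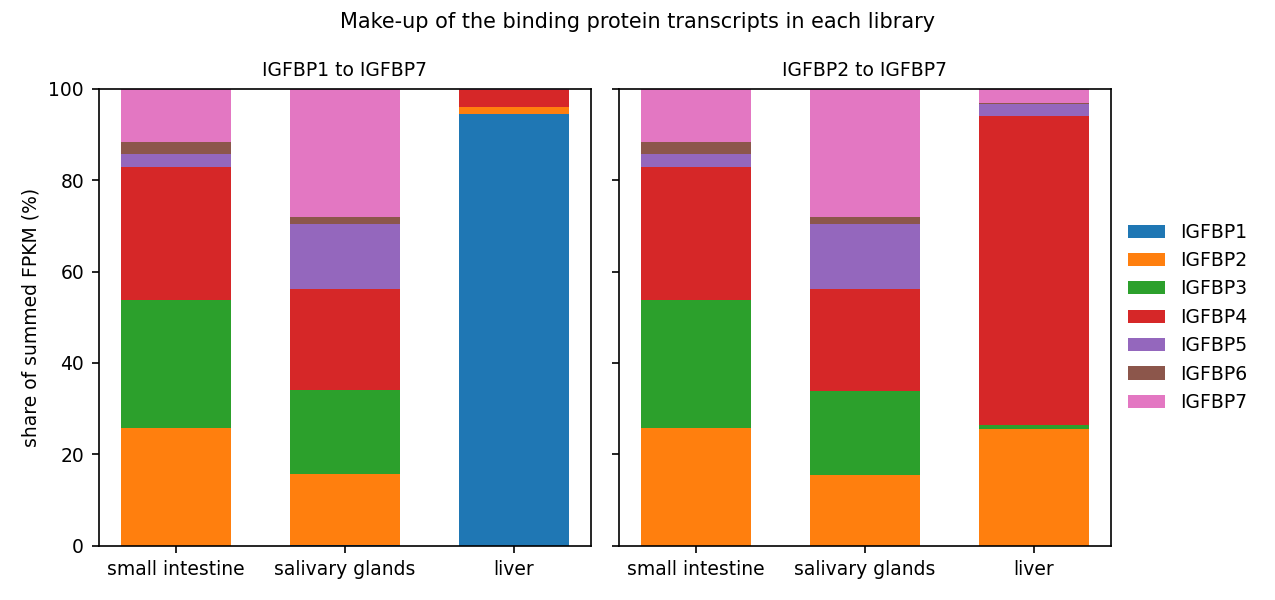
Share in % of the summed FPKM of the binding proteins held by each gene in each library, with IGFBP1 (left) and without it (right). The liver bar is 94.6% IGFBP1 on the left and 67.7% IGFBP4 on the right, whereas the other bars hardly differ between the panels.

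The binding proteins had summed FPKM values of 594, 119.6 and 20122 in the small intestine, salivary glands and liver, and IGF1 and IGF2 together of 36.2, 3.15 and 193. Binding protein transcripts exceeded ligand transcripts 16.4-fold, 37.9-fold and 104-fold in that order. Without IGFBP1 the liver ratio was 5.64, the lowest of the 3, while the other ratios were 16.4 and 37.9. The binding proteins took 0.0913%, 0.0325% and 2.87% of all counts in the small intestine, salivary glands and liver.

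The 5 genes that were higher in the liver in both comparisons moved with hepatocyte genes, of which all 12 were past the fold upward against both tissues, with a median log2 of 8.82 against the small intestine and 11.06 against the salivary glands. Macrophage and Kupffer cell genes were also higher in the liver, for 9 and 10 of 10, with C1QC at an FPKM of 18.7, 16.3 and 367. In the salivary glands against the small intestine, 4 of 9 of them were higher and 0 lower, with a median log2 of 0.04. Hepatocyte genes were higher there for 2 of 7 and lower for 5, with a median of -2.80. IGF1, IGF2, IGFBP2 and IGFBP4 were all lower in that comparison. IGFBP3 and IGFBP6 were highest in the small intestine and, against it, moved with smooth muscle genes. Of these, 7 of 8 were lower in the liver and 6 of 8 lower in the salivary glands. DES had an FPKM of 754, 9.86 and 0.205. Fibroblast and stellate cell genes were lower in the liver for 9 of 13 and in the salivary glands for 11 of 13, with COL6A1 (gene26938) at 130.3, 3.68 and 8.84. Stomach genes moved the same way against the small intestine. They were lower for 13 of 13 in the liver (a median log2 of -12.10) and 13 of 13 in the salivary glands (-10.11). In the liver against the salivary glands the lists and the members parted. Smooth muscle genes were lower in the liver for 7 of 8 and stomach genes for 7 of 7. Fibroblast and stellate cell genes were higher there for 3 of 12 and lower for 4. IGFBP3 was lower (-1.32) and IGFBP6 was in neither direction (0.47). The part of these cell types in the levels of the binding proteins was not tested. Of 8 pancreatic acinar genes, 4, 2 and 3 were above 1, and of 10 skeletal muscle genes 2, 3 and 1, the highest being ACTA1 at 0.870, 26.8 and 0. The lists of enterocyte and salivary gland genes were led by VIL1 (24.0, 25.7 and 21.2) and KRT7 (12.7, 197 and 15.2), and that of endothelial genes by PECAM1 (23.9, 12.8 and 18). Of 13 endothelial genes with enough counts, 6 were higher and 2 lower in the liver against the small intestine, 9 higher and 2 lower against the salivary glands, and none higher and 5 lower in the salivary glands against the small intestine.

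Among the receptors, IGF1R was lowest and INSR highest in the liver. IGF1R (gene1340), the receptor through which both ligands signal, had 2457, 2136 and 447 counts and FPKM values of 23.4, 17.1 and 2.54. Its log2 fold in the liver was -3.22 (-3.37 to -3.07) against the small intestine and -2.85 (-3.0 to -2.70) against the salivary glands. The library with the most ligand transcripts thus had the fewest IGF1R transcripts. INSR, the insulin receptor, had FPKM values of 27.7, 15.2 and 72.3, with a log2 fold of 1.39 (1.32 to 1.45) and 2.19 (2.11 to 2.27) in the liver. IGF2R, which takes IGF2 to lysosomes, had FPKM values of 40.2, 69.6 and 26.5 and was the most abundant of the list in the small intestine and the salivary glands. Over the 5 genes of the list, 1 of 4 with enough counts was higher and 2 were lower in the liver against the small intestine, 1 of 3 higher and 2 lower against the salivary glands, and none of 4 higher and 1 lower in the salivary glands against the small intestine. Beside the counts of this and every other list, 23.7% of all genes tested were higher and 24.5% lower in the first comparison. The shares were 24.5% and 23.2% in the second and 17.0% and 20.5% in the third.

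Growth hormone signalling induces IGF1 in the liver. The growth hormone receptor, GHR, had FPKM values of 9.40, 13.6 and 19.9 and was within 2-fold in every comparison. SOCS2, a feedback inhibitor that growth hormone induces, had values of 40.8, 39.0 and 205, with a log2 fold of 2.35 (2.25 to 2.44) in the liver against the small intestine and 2.28 (2.19 to 2.37) against the salivary glands. SOCS3, a feedback inhibitor of cytokine signals, had 106, 59.6 and 143. PRLR, the prolactin receptor, had 3, 3 and 113 counts and a log2 ratio of 4.48 (2.89 to 6.77) in the liver against the small intestine. Of 13 genes, 3 were higher and none lower in the liver against the small intestine, 5 were higher and 1 lower against the salivary glands, and of 12 in the salivary glands against the small intestine 1 was higher and 1 lower.

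In the list of proteases that cut binding proteins and stanniocalcins that inhibit them, the majority of genes with enough counts were lower in the liver. PAPPA (gene17743), or pappalysin, which cuts IGFBP4, had 364, 55 and 3 counts and FPKM values of 3.78, 0.470 and 0.0184. Its log2 ratio in the liver was -7.68 (-9.97 to -6.12) against the small intestine, where IGFBP4 itself stood at a positive 2.32 (2.27 to 2.37). STC2, an inhibitor of pappalysin, had 10, 3074 and 62 counts and FPKM values of 0.248, 68.4 and 1.03, so the salivary glands stood 8.09 (7.21 to 9.16) above the small intestine in log2. HTRA1, a secreted protease that itself carries an IGFBP-like domain, had values of 33.7, 8.40 and 2.70. PLG, the plasma protein plasminogen, had 1, 0 and 32155 counts and an FPKM of 687 in the liver. The highest FPKM of the list in the salivary glands, 247, belonged to a new gene named ADAM9, a membrane protease, and rests on 18 counts. Of 13 genes with enough counts, 4 were higher and 7 lower in the liver against the small intestine, beside 23.7% and 24.5% of all genes tested. Against the salivary glands 2 of 11 were higher and 6 lower, beside 24.5% and 23.2%. In the salivary glands against the small intestine 3 of 12 were higher and 6 lower, beside 17.0% and 20.5%. Loci of the same gene, as of PAPPA2 and ADAM9, were counted singly.

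Below the receptors, 25 genes had enough counts. In the liver against the small intestine 3 were higher and 5 lower, beside 48.2% of all genes tested past the fold in either direction. Against the salivary glands 5 were higher and 4 lower, beside 47.7%. In the salivary glands against the small intestine 2 were higher and 4 lower, beside 37.5%. AKT1, a central kinase of the pathway, had FPKM values of 86.7, 97.8 and 49.2. IRS1 (gene857), an adaptor of both receptors, had 7.09, 1.22 and 23.5, with a log2 fold of 4.40 (4.05 to 4.78) in the liver against the salivary glands. A second locus named IRS1 (gene20113) had 16.9, 13.5 and 25.2, and there the same fold was only 1.05 (0.93 to 1.18). The PI3K regulatory subunit PIK3R1 (gene2926) had 15.4, 120.0 and 3.39 and a log2 fold of 2.91 (2.80 to 3.03) in the salivary glands against the small intestine. A new gene also named PIK3R1, with 37, 21 and 8 counts, went the other way in that comparison, at -0.99 (-1.83 to -0.18).

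The last lists were the IGF2 mRNA binding proteins and the relatives that carry an IGFBP domain. The 2 loci of IGF2BP2 with the highest levels, an RNA-binding protein named for the IGF2 transcript, had FPKM values of 9.31, 2.63 and 0.544 (gene10250) and of 12.7, 3.69 and 0.147 (gene19525), the liver lowest in both. All 4 loci of that list with enough counts were lower in the liver than in the small intestine, beside 24.5% of all genes tested. Against the salivary glands 3 of 3 were lower in the liver, beside 23.2%. In the salivary glands against the small intestine 4 of 4 were lower, beside 20.5%. Of these loci 3 were IGF2BP2, the only gene of the second comparison. The other was IGF2BP3, with 17, 0 and 4 counts. CTGF, a matricellular protein of the CCN family, had 12.7, 196 and 4.30, and its relative CYR61 had 19.9, 49.4 and 10.5, both highest in the salivary glands. NOV, of the same family, had 70, 2 and 99 counts and a log2 fold of -0.26 (-0.72 to 0.20) in the liver against the small intestine, and HTRA3, a protease related to HTRA1, had FPKM values of 13.0, 2.37 and 0.456. Of 10 relatives with enough counts, 2 were higher and 5 lower in the liver against the small intestine and 3 higher and 6 lower against the salivary glands, and 3 of 11 were higher and 3 lower in the salivary glands against the small intestine.

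**Figure D4:**
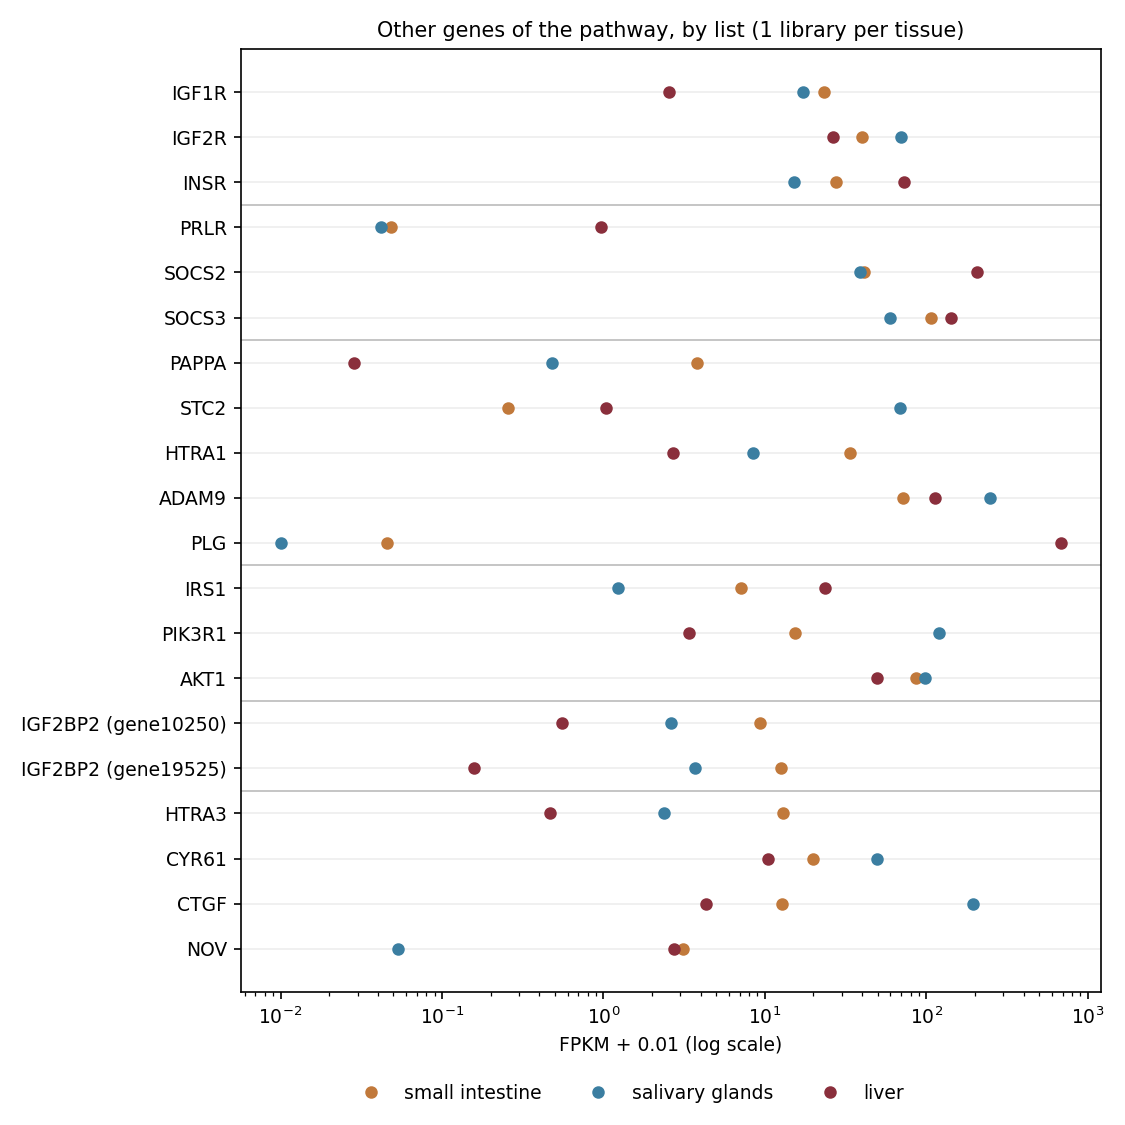
FPKM plus 0.01 on a log axis of 20 other genes of the pathway, with 1 point per library and lines between the lists, from receptors at the top to relatives with an IGFBP domain at the bottom. The liver point of IGF1R lies at 2.54, left of the others, and that of INSR at 72.3, right of the others.

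For each gene with at least 100 counts over the libraries, the nearest 3 genes were found by the distance of log2 (FPKM + 1) over the 3 libraries, as a description. The nearest to IGFBP1 were the fibrinogen chains FGB, FGG and FGA, at distances of 0.59, 0.61 and 0.98, with liver FPKM values of 12822, 12649 and 9658. Nearest to IGF2 was PROS1, protein S of coagulation, at 0.76, followed by SGK1 (1.16) and a gene annotated as CXADR (1.17). The NR entry of the last names a CXADR-like membrane protein. Nearest to IGFBP2 was the complement protease C1S at 1.14, then a gene annotated as S100A9 (1.24) and the liver protease HPN (1.49), and nearest to IGFBP4 were SERPING1, the C1 inhibitor, at 1.39, IGFBP2 at 1.5 and HSP90B1 at 1.61. IGF1 lay nearest to SCG2 at 0.08, with a gene annotated as ABCC1 at 0.37 and CXCL10 at 0.41. Near IGFBP3 were PDLIM7 (0.33), CCND1 (0.73) and HPCAL1 (0.75), all with the small intestine highest and the liver lowest.

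IGFBP6 lay nearest to genes annotated as CHN1 (0.25), LIMD1 (0.32) and EGLN3 (0.39), all highest in the small intestine. IGFBP5 lay near NMI (0.10), a gene annotated as ELAVL2 (0.11) and NAT10 (0.12). The NR entry of the ELAVL2 gene names ELAV-like protein 1. The second IGFBP5 locus lay near FAM220A (0.05), MTHFD2L (0.07) and XPNPEP3 (0.07). All of these were highest in the liver, with NMI at an FPKM of 12.5, 12.2 and 20.6 and FAM220A at 4.22, 4.32 and 5.85. IGFBP7 lay near VBP1 (0.15), PITPNB (0.23) and CSNK1D (0.25). IGFALS lay near a new gene annotated as ANKRD7 (0.09), M-Ras (0.09) and ADORA1 (0.11), all with the small intestine highest and the liver lowest. Of all these, IGFBP2 beside IGFBP4 was the only pair of members.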

How the data were processed

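RNA of 3 tissues was sequenced in pairs on an Illumina instrument. The authors aligned reads with TopHat2, built new genes with Cufflinks from reads outside the annotation, and deposited per gene a count, an FPKM and a score (the count before rounding times 1 factor per library, used here only to check the counts). The methods name RSEM for FPKM, while the tool behind the counts and the build of the scaffolds are not given in the sources used here. The deposited counts are estimates rounded up: 35.5% to 37.1% of the genes counted in a library hide a fraction. Members, gene lists and comparisons were chosen with earlier results of these data known.

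Counts were scaled by TMM factors computed once over all 3 libraries in edgeR 4.0.16 (R 4.3.3). Folds between 2 libraries carry exact conditional binomial (Clopper-Pearson) 95% intervals. With 1 library per tissue no test between tissues was run. A gene was past the fold at an absolute log2 fold of at least 1 with at least 10 counts in the pair. A count of 0 was set to 3, no fold was given with both at or under 3, and ratios with 1 to 3 counts are given as ratios only. PCR reads without molecular identifiers are not independent molecules, so intervals cover counting error only. The fold code was tested on simulated data. Other steps used Python 3.11.15 with pandas (2.3.3), scipy (1.17.1), numpy (2.4.6) and, for plots, matplotlib (3.10.9).

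All members were named. Of each pathway list, the text names the 2 genes with the highest FPKM and those past an absolute log2 fold of 3 at 100 counts, and of each marker list the highest gene, except 1 that is not reported here. GHR, insulin, the absent intestine markers, AQP5, BPIFA1, pepsin A, C1QC, DES, and the neighbours of members were named after their values were seen. So were IGF2BP3, PAPPA2 and the second loci of IRS1 and PIK3R1. The product names that replace symbols in the lists were also written after values by symbol were seen. Alternatives were other scalings (library size, upper quartile, DESeq2 1.42.0 size factors), FPKM folds with 0.1 added, a log2 fold of 2, whole intervals past the fold, no filter or 100 counts, 0.5 added to counts, no new genes, FPKM above 0.5 or 5, TPM, 10 counts, product names, shares of counts, and no IGFBP7. RefSeq genes of MJ_LKY served only for names and neighbours, with no coordinates.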

Additional observations from a re-analysis of the deposited data

How the results depend on the processing

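No paired analysis was possible because there was 1 library per tissue and no result comes from a test between groups, and for the same reason no library could be left out. Library size as the only scaling moved all genes by 0.24 on the log2 scale in the liver against the small intestine, by -0.22 in the liver against the salivary glands and by 0.46 in the salivary glands against the small intestine, and the other scalings moved them by under 0.1. Of 320 fold values of members under 10 alternatives, 297 stayed within their counting interval, 23 left it, and none that was past the fold changed sign. Alternatives that change only the threshold, the filter on counts or the gene set leave a fold as it was. Their values are among the 297 by construction and say nothing on stability. The 23 came from scaling by library size alone and from FPKM folds. IGFBP5 passed 2-fold in the liver against the small intestine by library size (a log2 of 1.03), and IGFBP2 fell short of it in FPKM (0.86). Also in FPKM, IGFALS fell short in the liver against the salivary glands (-0.90) and passed in the salivary glands against the small intestine (-1.02), and IGFBP7 passed in the latter and in the liver against the small intestine (-1.03 in both). Members by symbol lower in the liver than in the salivary glands numbered 2, but 1 by FPKM folds, 1 with the whole interval past the fold and 0 at a log2 fold of 2. Those lower in the salivary glands than in the small intestine numbered 10 by symbol and 6 by product name, an alternative chosen after seeing the data. Above an FPKM of 5, 7 members by symbol were left in the small intestine, and the salivary glands had 5. Genes past the fold numbered 8600, 8393 and 6392 in the liver against the small intestine, the liver against the salivary glands and the salivary glands against the small intestine. They numbered 4716, 4428 and 3042 at a log2 fold of 2 and 5023, 4882 and 3263 with 100 counts, where fewer genes are tested, and 3661 in the last comparison with the whole interval past the fold. As a share of counts, IGFBP4 held 36.8% in the small intestine, IGFBP7 10.7% in the salivary glands and IGFBP1 91.0% in the liver. Without IGFBP7, IGFBP4 held 33.1% in the small intestine and IGFBP1 94.8% in the liver, and the salivary glands gave no value because IGFBP7 held the largest share there. Depth limits the genes with few counts, such as IGF1, IGFBP1 and IGFBP6 in the salivary glands, IGFBP1 in the small intestine and the second IGFBP5 locus in both.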
